A study of Mus musculus with 2 samples.

Results

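The 53 genes described here are immediate early genes and genes that tissue dissociation is known to induce, and they were followed across the cell classes of mouse back skin and preputial gland (PG). They were taken as a fixed list of symbols, and all 53 were present among the 32285 genes of the matrices and had unique molecular identifier (UMI) counts in the cells of both libraries. Back skin biopsies of 6 mm and PG samples came from 3 male wild type C57BL/6 mice aged 52 weeks. Both tissues were dissociated with the same enzymatic kit. For each tissue the cells of all 3 mice went into 1 pool and 1 droplet library, so the study holds 2 libraries without replicates. No group was treated, and no transgene or deletion was used. The comparisons ask how these genes differed between cell classes of a tissue, between the same class of both tissues, and among sebocytes (SEB) of the gland. Since a group is 1 library, no test between tissues was possible, and every interval below is an exact 95% interval that covers counting error only. Tissue and library cannot be told apart, and the spread between the 3 mice, which gave cells to both libraries, cannot be measured.

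Immediate early genes are transcribed within minutes of a stimulus without new protein synthesis. Kinase cascades activate factors that are already bound at their promoters, and the first products, such as the FOS, JUN and EGR proteins, are transcription factors themselves. Others are inhibitors, such as dual-specificity phosphatases, NFKBIA, SOCS3 and the mRNA-degrading protein ZFP36, that end the response. Enzymatic dissociation of solid tissue is a well-known trigger of this program and of heat shock genes, so a level measured in dissociated cells joins what the cell expressed in the tissue with what it induced during preparation. The data hold no undissociated sample, and the shares of both were not tested.

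Promoter sequences of 44 of the 53 genes were found in the RefSeq table of mouse build GRCm38.p6. The 250 bases before the transcription start of 6 of them are printed 5′ to 3′ on the gene's strand, because these genes stand for the main patterns below. *Fos*, *Nr4a1* and *Dusp1* were low in gland epithelium, *Hspa1b* represents heat shock, and *Cebpb* and *Pdk4* were the leading exceptions. Capitals mark the short motif of the cyclic AMP response element (CRE), TGACG or its reverse complement CGTCA, in the first 4 sequences and the heat shock element GAANNTTC in *Hspa1b*. *Pdk4* held neither.
Fos, chr12:85473640-85473889, plus strand: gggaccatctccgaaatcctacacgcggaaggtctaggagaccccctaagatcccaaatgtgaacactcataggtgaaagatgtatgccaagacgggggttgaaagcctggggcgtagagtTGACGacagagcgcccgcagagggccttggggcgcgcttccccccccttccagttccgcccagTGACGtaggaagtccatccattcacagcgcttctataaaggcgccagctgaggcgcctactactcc
Nr4a1, chr15:101266596-101266845, plus strand: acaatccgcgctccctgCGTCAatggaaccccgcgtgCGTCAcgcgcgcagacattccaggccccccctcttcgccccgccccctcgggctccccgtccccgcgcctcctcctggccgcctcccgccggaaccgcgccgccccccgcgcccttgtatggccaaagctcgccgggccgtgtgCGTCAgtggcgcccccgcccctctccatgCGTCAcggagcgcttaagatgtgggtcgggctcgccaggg
Dusp1, chr17:26508473-26508722, minus strand: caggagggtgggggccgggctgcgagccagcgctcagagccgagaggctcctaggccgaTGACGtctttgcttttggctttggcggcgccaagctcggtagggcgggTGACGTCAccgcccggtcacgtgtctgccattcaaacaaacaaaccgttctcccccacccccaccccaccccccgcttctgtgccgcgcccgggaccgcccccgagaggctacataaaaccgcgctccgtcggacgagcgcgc
Cebpb, chr2:167688665-167688914, plus strand: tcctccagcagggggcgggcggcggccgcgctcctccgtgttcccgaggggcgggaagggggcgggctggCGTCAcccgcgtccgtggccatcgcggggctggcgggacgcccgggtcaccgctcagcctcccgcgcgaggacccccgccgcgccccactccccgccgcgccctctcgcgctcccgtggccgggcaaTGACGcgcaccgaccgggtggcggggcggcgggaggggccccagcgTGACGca
Hspa1b, chr17:34959239-34959488, minus strand: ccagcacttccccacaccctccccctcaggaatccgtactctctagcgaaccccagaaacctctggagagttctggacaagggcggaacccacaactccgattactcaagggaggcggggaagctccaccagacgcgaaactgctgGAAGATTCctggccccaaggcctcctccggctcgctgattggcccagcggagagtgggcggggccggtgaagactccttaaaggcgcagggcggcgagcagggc
Pdk4, chr6:5496279-5496528, minus strand: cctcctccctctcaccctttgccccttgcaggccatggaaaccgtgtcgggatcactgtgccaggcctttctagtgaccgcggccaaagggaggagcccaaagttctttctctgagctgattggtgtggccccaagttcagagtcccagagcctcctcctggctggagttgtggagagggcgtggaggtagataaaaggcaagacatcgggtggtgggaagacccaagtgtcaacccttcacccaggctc

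On either strand, the short motif TGACG was found in 20 of the 44 matched members (45.5%) and in 19.8% of the 27025 genes with a window of this length. The full element TGACGTCA, which contains the short motif, was found in 4 members (9.09%), *Maff*, *Btg2*, *Dusp1* and *Ppp1r15a*, and in 1.77% of all genes. The heat shock element was present in 6 members (13.6%), among them *Hspa1a*, *Hspa1b* and *Jun*, and in 7.73% of all genes. The AP-1 site TGANTCA was present in 1 member (2.27%), *Zfp36l1*, and in 7.82% of all genes. The windows of the members were richer in G and C, with a median of 64.2% against 52.4%, and the part of base composition in these shares was not tested. The short motif was shared by *Cebpb*, *Fos* and *Dusp1*, whose levels in basal keratinocytes differed between the tissues in opposite directions.

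Barcodes needed a minimum of 500 genes and 1000 UMIs and no more than 10% mitochondrial UMIs to be kept, which left 8899 cells in skin (median 2386 UMIs) and 4699 in PG (median 2729 UMIs). Cells were put into classes by the UMIs of marker lists that contain no member, and each class name stands for that gate and not for a proven cell type. The barcode lists of the libraries differed, with 6794880 barcodes in skin, 737280 in PG and 77142 in both, while a single kit is named, so a difference in chemistry and the tissue cannot be told apart. No cell barcode was shared by the kept cells. Of the 14 sebocyte markers, 14 in skin and 10 in PG were over 3-fold higher in the sebocyte gate than in all other cells, and *Awat1* had no UMI in PG sebocytes. The skin sebocyte gate held 30 cells and 138204 UMIs, against 902 cells and 4588124 UMIs in PG, so single genes in skin sebocytes (sSEB) rest on few UMIs. In PG sebocytes (pSEB) the summed level was 0.350% of UMIs in the 124 cells just inside the limit of the gate. In the 285 cells just outside the limit it was 0.349%. The outside cells were keratinocytes or had no class. PG basal keratinocytes had 0.359%, so these values could hardly show a dependence on the gate. In skin, 6 cells just inside had 0.651% and 27 just outside 0.799%.

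The members made up less of the RNA of gland epithelium than of any other gland class with at least 20 cells. Summed over the 53 genes, they were 0.348% of UMIs in pSEB (interval 0.342 to 0.353%), 0.359% in PG basal keratinocytes (0.354 to 0.364%) and 0.480% in PG suprabasal keratinocytes (0.469 to 0.490%). PG fibroblasts had 1.84% (1.81 to 1.86%), PG endothelial cells 1.996% (1.90 to 2.09%), PG contractile cells 2.26% (2.11 to 2.43%) and PG myeloid cells 2.64% (2.59 to 2.69%). The 3 epithelial classes of the gland thus lay below its other classes without overlap of the intervals. The gap to fibroblasts depended on the depth of the cells. Under 2000 UMIs, PG fibroblasts had 2.12% (523 cells) and pSEB 0.285% (89 cells). With 2000 UMIs or more they had 0.854% (70 cells) and 0.350% (813 cells). The intervals of endothelial and contractile cells did not overlap either, but these classes held 50 and 23 cells.

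In skin the order was different. Basal keratinocytes had 1.604% (1.596 to 1.611%) and suprabasal keratinocytes 1.32% (1.31 to 1.32%), above and below fibroblasts with 1.43% (1.42 to 1.45%). Myeloid cells had 1.99% (1.95 to 2.04%), and endothelial and contractile cells, which did not differ beyond their intervals, had 2.31% each (2.25 to 2.38% and 2.17 to 2.45%). Hair matrix cells, the proliferating source of the hair shaft, had 0.358% (0.350 to 0.366%), a level near that of pSEB, so low levels were also found in a skin epithelial class. Skin T cells had 1.16% (1.09 to 1.24%), melanocytes 0.624% (0.572 to 0.679%) and skeletal muscle cells 0.320% (0.290 to 0.352%). The 30 sSEB had 0.825% (0.778 to 0.874%), which lay below the keratinocytes of skin and above pSEB. By the stage markers described below, 9 sSEB were early (0.931%), 9 differentiated (0.780%), 9 had both sets (0.938%) and 3 neither (0.367%). Of the 902 pSEB, 27 had both sets and 478 neither. The part of this unlike makeup in the ratios between sebocytes was not tested.

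**Figure D1:**
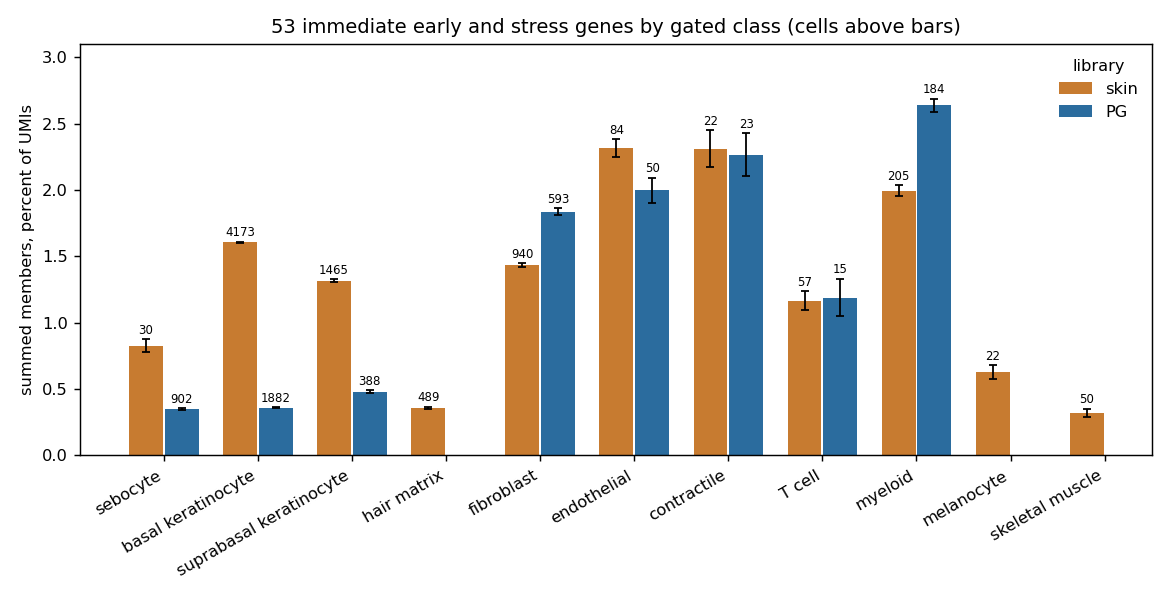
Summed UMIs of the 53 genes as a percent of all UMIs (vertical axis, linear) for each marker-gated class (horizontal axis) in the skin and PG libraries, with exact Poisson 95% intervals as error bars and the number of cells above each bar. Sebocytes and keratinocytes of PG sit between 0.348% and 0.480%, below the same classes of skin, while PG fibroblasts (1.84%) and PG myeloid cells (2.64%) sit above those of skin.

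Of the 7 classes with at least 20 cells in both libraries, 2 had a higher summed level in PG. The log2 ratio of PG over skin was -1.25 in sebocytes (interval -1.33 to -1.16), -2.16 in basal keratinocytes (-2.18 to -2.14) and -1.46 in suprabasal keratinocytes (-1.49 to -1.42). As folds, the level of skin was 2.37, 4.46 and 2.74 times that of PG. In fibroblasts the log2 ratio was 0.36 (0.33 to 0.39) and in myeloid cells 0.40 (0.36 to 0.44). In endothelial cells it was -0.21 (-0.30 to -0.13) and in contractile cells -0.03, and both changed sign when each cell was given the same weight, to 0.15 and 0.03. The ratios thus had both signs within the same pair of libraries.

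The fibroblast ratio depended on the depth of the cells. PG fibroblasts with under 2000 UMIs had 2.12% (2.09 to 2.16%, 523 cells), and those with 2000 UMIs or more had 0.854% (0.815 to 0.895%, 70 cells). Skin fibroblasts had 1.35% and 1.502% in the same bins (573 and 367 cells). With cells of at least 1000 genes and 2000 UMIs, 65 PG and 319 skin fibroblasts were left, and the log2 ratio turned to -1.06. Sebocytes, both keratinocyte classes and myeloid cells kept their direction under this limit. In myeloid cells PG was higher in both bins, with 2.05% against 1.63% under 2000 UMIs and 2.98% against 2.23% above. Endothelial cells changed direction, with 2.02% in PG against 1.53% under 2000 UMIs and 1.96% (12 cells) against 2.78% above. Basal keratinocytes had 0.354% in PG against 1.12% under 2000 UMIs and 0.360% against 1.72% above.

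Single cells of the gland epithelium held few member UMIs. After every cell was thinned to 1000 UMIs, the median pSEB held 3 member UMIs and the 90th percentile 7, against 8 and 17 in sSEB. PG basal keratinocytes had a median of 3 and a 90th percentile of 7, while skin basal keratinocytes had 7 and 38. Fibroblasts had medians of 7 in skin and 11 in PG, and myeloid cells of 16 and 21. The Fano factor, the variance over the mean, which is 1 for pure counting error, was 3.52 in pSEB, 4.92 in PG basal keratinocytes, 3.82 in hair matrix cells, 20.6 in skin basal keratinocytes and 36.3 in PG fibroblasts. At the same relative spread this factor rises with the mean, so it does not rank classes of unlike levels by relative spread. The tenth of cells with most member UMIs held 33.8% of them in pSEB, 36.5% in PG basal keratinocytes and 39.8% in skin basal keratinocytes.

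Cells with 20 or more member UMIs of 1000 were rare in the gland epithelium. They were 4 of 902 pSEB (0.443%, Clopper-Pearson interval 0.121 to 1.13%) and 34 of 1882 PG basal keratinocytes (1.81%, 1.25 to 2.52%). In skin they were 947 of 4173 basal keratinocytes (22.7%, 21.4 to 24.0%) and 1 of 30 sSEB (3.33%, 0.0844 to 17.2%). They were 182 of 593 PG fibroblasts (30.7%) and 98 of 184 PG myeloid cells (53.3%).

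**Figure D2:**
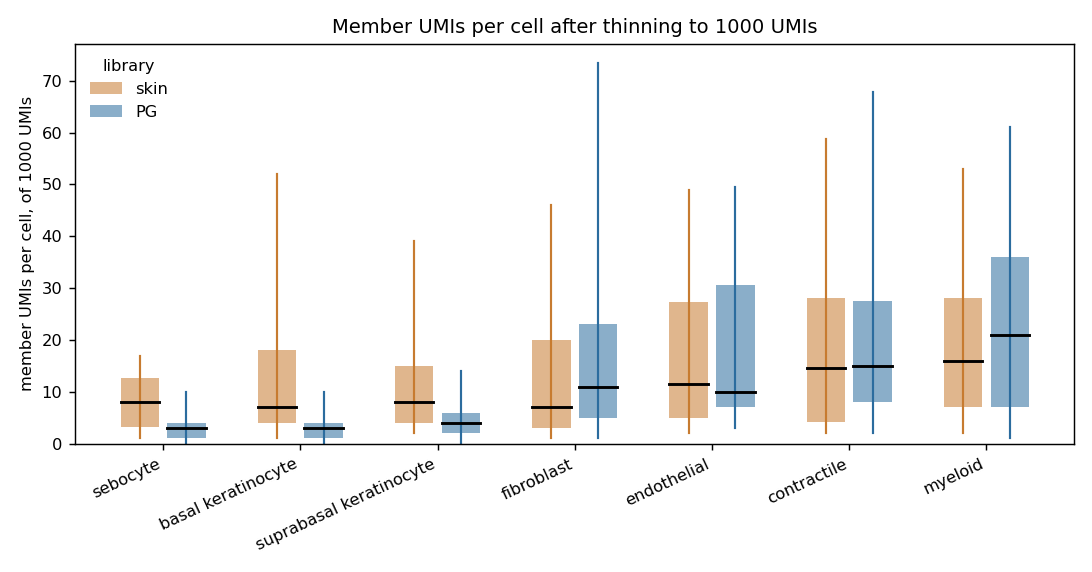
Member UMIs per cell (vertical axis) after thinning each cell to 1000 UMIs, for the 7 classes with at least 20 cells in both libraries (horizontal axis). Boxes span the 25th to 75th percentile of cells, black lines are medians and thin lines span the 5th to 95th percentile. The PG sebocyte and basal keratinocyte boxes lie low and narrow around a median of 3, and the PG fibroblast and myeloid boxes reach as high as those of skin or higher.

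Free RNA in the suspension can add UMIs to any cell. In barcodes with at most 100 UMIs, which hold such RNA, the members were 0.338% of UMIs in PG and 0.569% in skin. The summed level of pSEB was thus close to that of the free RNA of its own library, and 38 of the 53 members were at or below their free level in pSEB. The intervals of 10 lay above it: *Cebpb*, *Pdk4*, *Gadd45g*, *Btg2*, *Atf3*, *Ier2*, *Egr3*, *Myc*, *Rhob* and *Zfp36l1*. In CPM, the UMIs of a gene over all UMIs of the class on the usual scale, *Fos* had 93.5 in pSEB and 137 in free RNA. The part of free RNA in this level was not tested. In PG fibroblasts 46 of 53 members were above the free level, in PG myeloid cells 44, in skin basal keratinocytes 50 and in sSEB 25. The same share over all genes was not counted, so these counts cannot be read as particular to the members.

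One gene dominated the gland sebocytes. *Cebpb*, which encodes a basic leucine zipper factor of adipocyte and epithelial differentiation, had 1005 CPM in pSEB, and the AP-1 group, whose 9 genes form the AP-1 dimers and their relatives, had 661 CPM together. The next members were *Zfp36l1* (187 CPM), *Jund* (185 CPM), *Btg2* (151 CPM), *Jun* (142 CPM), *Hspa1b* (141 CPM), *Ier2* (137 CPM), *Pdk4* (136 CPM), *Gadd45g* (131 CPM) and *Atf3* (113 CPM). The core factors *Junb* (61.0 CPM), *Egr1* (54.7 CPM) and *Fosb* (16.8 CPM) were lower. Without *Cebpb* the summed level of pSEB was 0.247%. In PG basal keratinocytes the C/EBP and IRF group had 686 CPM, mostly from *Cebpb*, and *Jun* alone had 265 CPM. The AP-1 group led there with 825 CPM, unlike in pSEB. AP-1 genes also led skin basal keratinocytes with 0.686% of UMIs. Feedback genes, the inhibitors of the response, led PG myeloid cells with 0.839%.

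**Figure D3:**
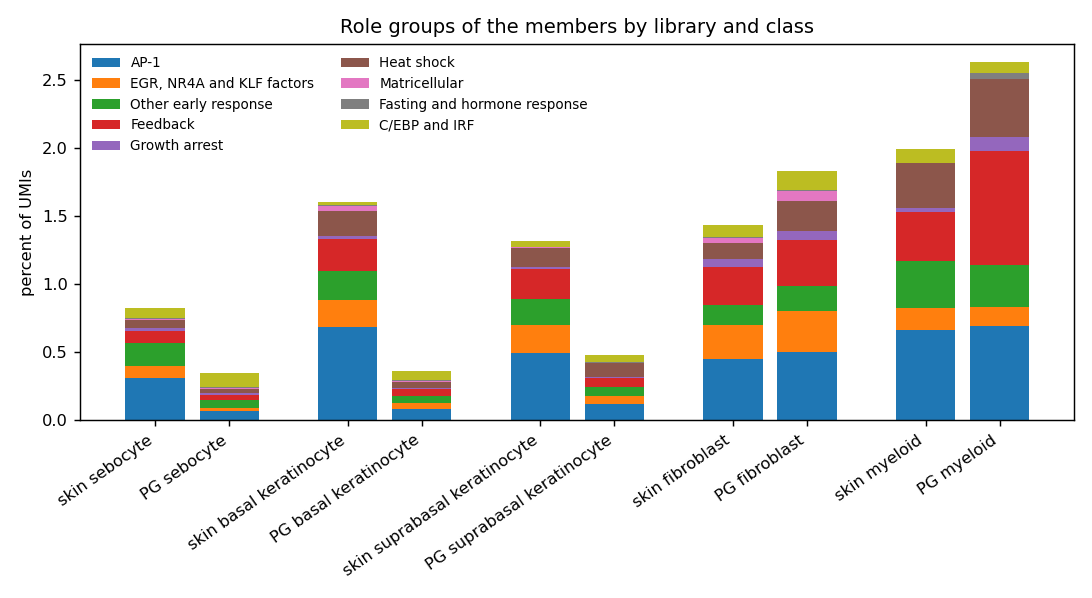
Percent of UMIs (vertical axis, linear) taken by each of the 9 role groups of the members, stacked, in 5 classes of the skin and PG libraries (horizontal axis). AP-1 genes fill 0.686% in skin basal keratinocytes and 0.0825% in PG basal keratinocytes, whereas the C/EBP and IRF group, mostly *Cebpb*, fills 0.102% in PG sebocytes and 0.0745% in skin sebocytes.

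Between the sebocytes of both tissues, 43 of the 53 members had at least 20 UMIs in both groups together. Of these, 24 were over 2-fold lower in pSEB (55.8%, where 15.7% of the 9234 genes with as many UMIs were) and 2 were over 2-fold higher (13.5% of all genes were). The median log2 ratio of the members was -1.17, against 0 over all genes. The 10 other members, among them *Klf2*, *Klf4*, *Nr4a2*, *Nr4a3*, *Socs3* and *Fosl1*, had too few UMIs to be compared, and *Ccn2* had none in either. For 7 of the 24 lower members the interval reached 0, among them *Dusp1* with 31 and 2 UMIs.

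Among AP-1 genes 6 of 7 compared were lower. *Jun*, a partner of most AP-1 dimers, had 142 CPM in pSEB and 1425 CPM in sSEB, a log2 ratio of -3.33 (-3.56 to -3.09). *Fosb* had 16.8 and 246 CPM (-3.87, interval -4.47 to -3.25), and *Junb* 61.0 and 239 CPM (-1.97, -2.49 to -1.40). *Atf3*, a stress-induced factor, had 113 and 420 CPM (-1.89, -2.29 to -1.48). *Fos* differed less, with 93.5 and 210 CPM (-1.17, -1.71 to -0.57), and *Fosl2* had 45.8 and 28.9 CPM (0.66, -0.72 to 2.55). The AP-1 genes that were lower thus differed among themselves by more than their intervals, which cover counting error and not the spread between cells. In sebocytes of both libraries, *Fos* and *Junb* lay below the free RNA (137 and 135 CPM in PG, 367 and 389 CPM in skin). *Jun*, *Fosb*, *Jund* and *Atf3* lay above the free RNA in sSEB. The part of free RNA in these ratios was not tested.

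Of the EGR, NR4A and KLF factors, 4 of 7 compared were lower and none was over 2-fold higher. *Egr1*, a zinc finger factor of growth signals, had 54.7 CPM in pSEB and 289 CPM in sSEB (-2.40, -2.89 to -1.88), and *Klf6* 27.2 and 159 CPM (-2.55, -3.21 to -1.82). *Klf10* had 21.1 and 14.5 CPM, the latter from 2 UMIs, and its interval reached from -1.34 to 3.61. *Egr3* had 101 CPM in pSEB and 311 CPM in sSEB, and sebocytes held its highest level among the classes of both tissues.

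Of the 9 other early response genes, 6 were lower. *Btg1*, an antiproliferative cofactor, had 41.6 and 355 CPM (-3.09, -3.55 to -2.61), *Ier3* 22.9 and 152 CPM (-2.73, -3.42 to -1.98) and *Btg2* 151 and 615 CPM (-2.03, -2.35 to -1.69). *Ier2* had 137 and 217 CPM, a ratio of -0.66 (-1.19 to -0.08) that stayed within 2-fold. *Myc*, the growth regulator, had 73.9 and 50.6 CPM (0.54, -0.51 to 1.87), so its direction was not fixed at this depth. In the other groups, 4 of 7 compared feedback genes, 2 of 4 heat shock genes, *Sgk1* and *Depp1* were over 2-fold lower, and none of the 3 *Gadd45* genes was. The intervals of *Dusp1*, *Dusp6*, *Ppp1r15a*, *Hsph1*, *Sgk1*, *Depp1* and the early response gene *Ier5* reached 0, so their direction was not fixed. Reads of the near-identical paralogs *Hspa1a* (64.1 and 239 CPM) and *Hspa1b* (141 and 275 CPM) may be split uncertainly between them.

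The members over 2-fold higher in pSEB were *Pdk4* and *Cebpd*, 4.65% of those compared, below the 13.5% of all genes. *Pdk4*, the kinase that shuts off pyruvate dehydrogenase in fasting, had 136 CPM in pSEB and 65.1 CPM in sSEB (1.06, 0.13 to 2.20), the latter from 9 UMIs. *Cebpd* had 14.8 and 7.24 CPM, and with 1 UMI in sSEB its interval spanned -1.49 to 6.36, so its direction was not fixed. *Cebpb* was higher by less than 2-fold, with 1005 and 724 CPM (0.47, 0.19 to 0.77).

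Basal keratinocytes gave the comparison with far more UMIs, but between gates that were unlike. With doubled gate limits the PG class held 920 cells in place of 1882, and the skin class 3965 in place of 4173. All 53 members could be compared. In PG, 39 were over 2-fold lower (73.6%, against 18.4% of 12616 genes) and 3 over 2-fold higher (16.3% of all genes), with intervals on 1 side of 0 for all 42. The median log2 ratio was -2.08 for members and 0.04 for all genes. By role, 8 of 9 AP-1 genes, 8 of 11 EGR, NR4A and KLF factors, 7 of 9 other early response genes, 6 of 9 feedback genes, 2 of 3 *Gadd45* genes, 3 of 4 heat shock genes both matricellular genes, *Sgk1*, *Depp1* and *Irf1* were lower.

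*Fosl1*, which encodes FRA1, had 0.358 CPM in PG basal keratinocytes, from 2 UMIs, and 92.2 CPM in skin (-8.01, -11.06 to -6.15). *Fosb* had 28.6 and 675 CPM (-4.56, -4.79 to -4.33), *Atf3* 52.6 and 1043 CPM (-4.31, -4.48 to -4.14) and *Fos* 70.0 and 1177 CPM (-4.07, -4.22 to -3.93). *Klf4*, a factor of epidermal differentiation, had 19.0 and 408 CPM (-4.43, -4.72 to -4.15). *Jun* (265 and 2087 CPM), *Junb* (87.1 and 820 CPM) and *Egr1* (115 and 631 CPM) were lower by -2.98, -3.23 and -2.46 on the log2 scale, and *Ier2* (86.6 and 313 CPM) by -1.85. The core genes were thus lower by unequal amounts, and the largest difference of the core was that of *Fosb*. *Dusp1* and *Nr4a1*, whose promoters are printed above, had 53.3 and 675 CPM and 19.5 and 291 CPM.

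The exceptions of basal keratinocytes overlapped those of sebocytes in *Pdk4*, with 52.1 CPM in PG and 2.34 CPM in skin (4.48, 3.91 to 5.09). *Cebpb* had 648 and 159 CPM (2.03, 1.95 to 2.11) and *Myc* 85.0 and 25.3 CPM (1.75, 1.54 to 1.96). *Egr2* (75.7 and 43.0 CPM) and *Egr3* (55.3 and 41.3 CPM) were higher by less than 2-fold. In the gate of PG basal keratinocytes, sebocyte markers had a median of 1.07 per 1000 UMIs in core-high and 1.45 in core-low cells. In skin basal keratinocytes both medians were 0. Early sebocyte markers, which hold basal keratins, had medians of 5.57 and 5.40 in PG and 20.2 and 21.1 in skin. The part of sebocyte RNA in the *Cebpb* and *Pdk4* values of this class was not tested, nor was the part of the unlike gates in its ratios.

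Suprabasal keratinocytes showed the same direction, with 30 of 50 compared members over 2-fold lower in PG (60.0%, against 25.2% of all genes) and 4 over 2-fold higher (15% of all genes). The 4 were *Pdk4* (27.03 and 0.671 CPM), *Egr2* (169 and 45.0 CPM), *Gadd45a* (51.7 and 21.1 CPM) and *Cebpd* (57.0 and 25.8 CPM), named after their values were seen. None of the 4 heat shock genes was over 2-fold lower in this class, where their sum had 984 CPM in PG and 1375 CPM in skin.

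**Figure D4:**
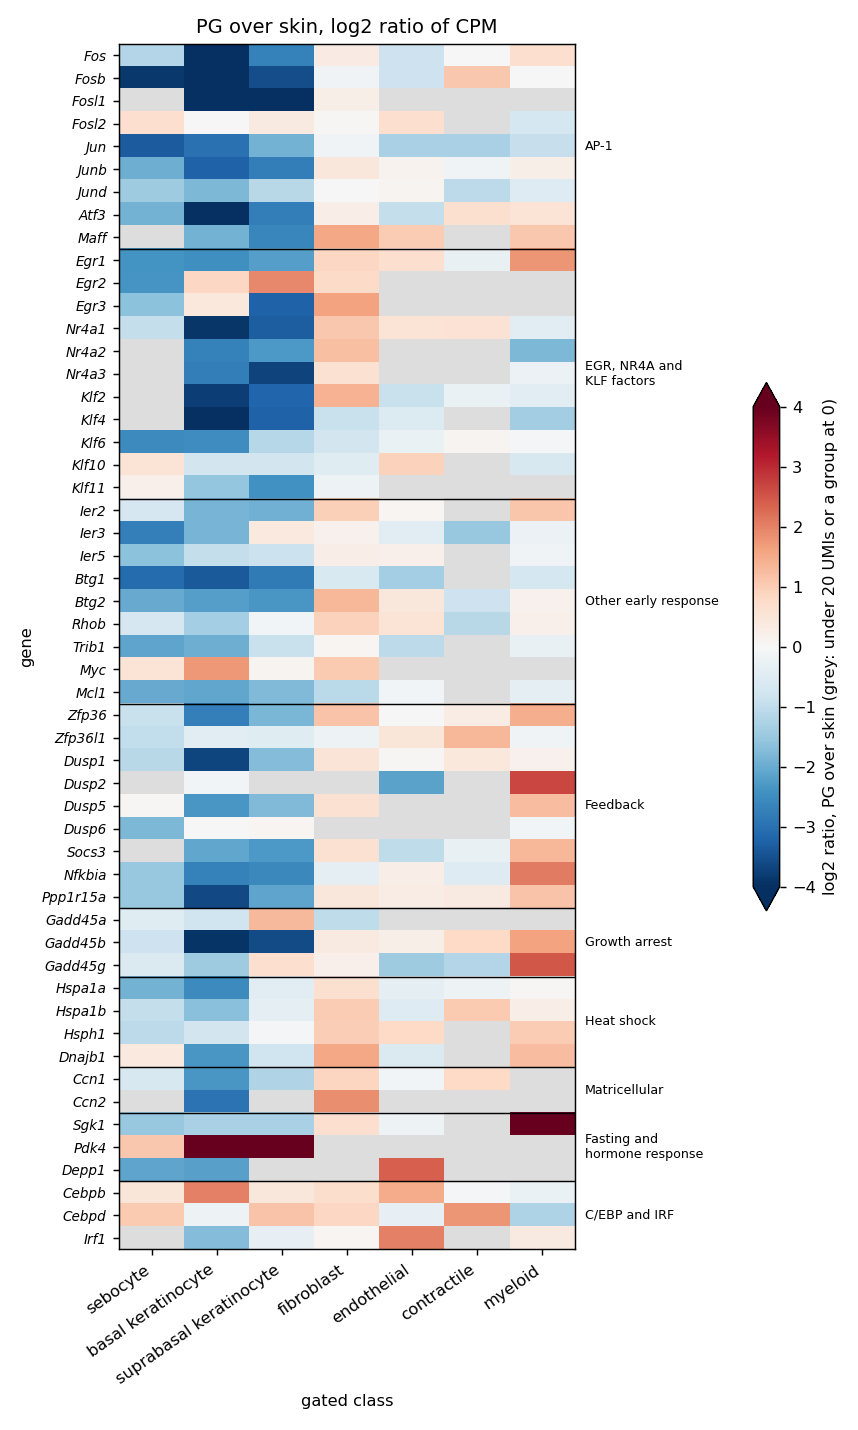
Log2 ratio of CPM, PG over skin, for each of the 53 members (rows, by role group) in 7 gated classes (columns). Blue is lower and red higher in PG, the colours end at -4 and 4, and grey marks members with under 20 UMIs or a group at 0. Most rows are blue in the 3 epithelial columns and pale or red in fibroblasts and myeloid cells, with *Pdk4* red in all 3 epithelial columns and *Cebpb* red in basal keratinocytes.

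In fibroblasts, 11 of 49 compared members were over 2-fold higher in PG (22.4%, against 9.89% of all genes) and 2 over 2-fold lower (8.92% of all genes). *Ccn2*, a matricellular target of mechanical signals, had 110 CPM in PG and 30.4 CPM in skin (1.86, 1.37 to 2.35). *Maff*, a small MAF factor, had 100.3 and 34.2 CPM (1.55, 1.07 to 2.04), *Dnajb1*, an HSP40 chaperone, 253 and 87.5 CPM (1.53, 1.24 to 1.83), and *Klf2* 548 and 211 CPM (1.38, 1.18 to 1.57). *Egr3* had 19.8 and 6.52 CPM (1.604, 0.47 to 2.79). *Mcl1*, a survival protein of the BCL2 family, was lower, with 132 and 278 CPM (-1.07, -1.37 to -0.78). *Gadd45a* was lower with an interval that reached 0, and *Klf4*, *Klf6* and *Btg1* were lower within 2-fold (-0.89, -0.73 and -0.59).

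The core genes of fibroblasts were within 2-fold between the tissues. *Jun* had 831 CPM in PG and 908 CPM in skin (-0.13, -0.25 to -0.00), *Fosb* 338 and 375 CPM (-0.15, -0.35 to 0.05), *Fos* 877 and 697 CPM (0.33, 0.20 to 0.46) and *Atf3* 296 and 244 CPM (0.28, 0.06 to 0.50). *Junb* (0.46), *Egr1* (0.82) and *Ier2* (0.96) were higher within 2-fold. These ratios rest on shallow PG cells. With at least 1000 genes and 2000 UMIs, those of *Maff*, *Klf2*, *Dnajb1*, *Nr4a1*, *Btg2*, *Zfp36*, *Hspa1b* and *Myc*, all over 2-fold higher above, turned below 0.

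In myeloid cells, 14 of 43 compared members were over 2-fold higher in PG (32.6%, against 11% of all genes) and 3 over 2-fold lower (18.1% of all genes). Members of this comparison were named after their values were seen. Feedback genes led, with 6 of 9 higher and 8393 CPM in PG against 3597 CPM in skin. *Nfkbia*, the inhibitor of NF-kappaB, had 2707 and 634 CPM (2.09, 1.90 to 2.29), *Zfp36* 2628 and 953 CPM (1.46, 1.30 to 1.63) and *Sgk1*, a kinase induced by hormones and osmotic stress, 427 and 16.3 CPM (4.71, 3.64 to 6.05). AP-1 genes as a group had 6883 and 6586 CPM (0.06, -0.01 to 0.14), so their sum did not differ beyond counting error. The gate joins macrophages, dendritic cells and Langerhans cells, and the part of a different makeup of this class was not tested.

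Across classes, 38 of the 39 members that were lower in PG basal keratinocytes could be compared in fibroblasts and 34 in myeloid cells. Of these, 29 had a ratio above 0 in fibroblasts, 21 in myeloid cells and 20 in both. The median log2 ratio of all genes was -0.01 in fibroblasts and -0.19 in myeloid cells. The share above 0 among all genes lower in PG basal keratinocytes was not counted. The fibroblast ratios behind these counts rest on shallow PG cells, and the fibroblast sum was -1.06 with at least 1000 genes and 2000 UMIs. The tissues also differed in the class with the highest level of each member, among classes with at least 20 cells. In PG this was the myeloid class for 20 of 53 members, endothelial cells for 11, contractile cells for 10, fibroblasts for 7, sebocytes for 3 and suprabasal keratinocytes for 2. In skin, contractile cells led for 14, endothelial cells for 12, myeloid cells for 11, and basal keratinocytes for 4, *Fosb*, *Klf11*, *Ier2* and *Dnajb1*. Sebocytes led for *Egr3* and *Pdk4* in both tissues, for *Myc* in skin and for *Cebpb* in PG. The leading class of all genes was not counted, and the contractile gates held 23 cells in PG and 22 in skin.

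Within the gland, sebocytes and basal keratinocytes had like summed levels (log2 ratio -0.05), from role groups of both signs. AP-1 (-0.32), EGR, NR4A and KLF (-0.68), feedback (-0.31), heat shock (-0.61) and matricellular genes (-1.49) were lower in sebocytes. The sums of growth arrest (1.66), fasting and hormone response (0.87) and C/EBP and IRF genes (0.57) were higher. They rested on *Gadd45g*, *Pdk4*, *Depp1* and *Cebpb*. The other genes of these groups were lower in sebocytes. *Gadd45a* had 10.2 and 17.2 CPM and *Gadd45b* 8.06 and 10.2 CPM, and *Sgk1*, *Cebpd* and *Irf1* were over 2-fold lower. Counted at any size, 37 compared members were lower and 14 higher. Their median log2 ratio was -0.47, against -0.17 over all genes. Of 51 compared members, 15 were over 2-fold lower in sebocytes (29.4%, against 17.6% of all genes) and 5 over 2-fold higher (9.80%), a share near the 7.24% of all genes. *Gadd45g*, a growth arrest gene, had 131 CPM in pSEB and 20.04 CPM in basal keratinocytes (2.71, 2.42 to 3.02). *Pdk4* (1.39, 1.18 to 1.59) and *Atf3* (1.10, 0.89 to 1.31) were higher too. *Egr2* had 8.50 and 75.7 CPM (-3.15, -3.67 to -2.68), *Dusp6*, a phosphatase of ERK, 4.14 and 33.5 CPM (-3.01, -3.78 to -2.33), and *Dusp1* 6.76 and 53.3 CPM (-2.98, -3.56 to -2.44). *Gadd45g*, *Egr2*, *Dusp6* and *Dusp1* were named here after their values were seen.

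Among pSEB, the summed level differed little between differentiation stages. Cells with basal keratin and adhesion markers were called early (234 cells), and cells with lipid enzyme markers such as *Elovl3* and *Soat1* differentiated (163 cells). The summed level was 0.369% (0.357 to 0.382%) in early, 0.350% (0.339 to 0.362%) in differentiated and 0.339% (0.331 to 0.346%) in the 478 cells with neither. The log2 ratio of differentiated over early was -0.08 (-0.15 to -0.01), and it moved to -0.42 with at most 5% mitochondrial UMIs and to -0.25 with doubled gate limits. Of 34 compared members, 1 was over 2-fold higher in differentiated cells (2.94%, against 6.04% of all genes) and 3 over 2-fold lower (8.82%, against 13.6%), so these shares lay below those of all genes.

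*Ccn1*, a matricellular protein, had 8.79 CPM in differentiated and 62.9 CPM in early cells (-2.84, -4.04 to -1.81). *Myc* had 44.9 and 117 CPM (-1.38, -1.91 to -0.87), and *Fosb* 11.7 and 24.7 CPM with an interval that reached 0. *Klf6* (-0.95, -1.78 to -0.15) and *Egr1* (-0.81, -1.42 to -0.21) were lower within 2-fold. In the other direction, *Atf3* had 165 and 92.2 CPM (0.84, 0.45 to 1.24), *Zfp36* 132 and 84.3 CPM (0.65, 0.23 to 1.07) and *Ier2* 156 and 108 CPM (0.53, 0.16 to 0.91). *Gadd45b* (15.6 and 5.62 CPM) and *Cebpd* (20.5 and 12.4 CPM) had intervals that reached 0. Members of the core thus lay on both sides, with *Atf3* and *Ier2* toward differentiated and *Egr1* toward early cells.

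To ask whether the members vary together from cell to cell, pSEB were split by 7 core genes alone, *Fos*, *Fosb*, *Jun*, *Junb*, *Egr1*, *Atf3* and *Ier2*. At 1000 UMIs per cell, 667 cells held no core UMI (core-low) and 235 held at least 1 (core-high), which left no cell between. The other 46 members, which the split did not use, were 0.436% of UMIs in core-high and 0.224% in core-low cells (log2 ratio 0.96, 0.91 to 1.01). Of 35 compared, 22 were over 2-fold higher in core-high cells (62.9%, against 1.54% of 9114 genes) and none over 2-fold lower. The median log2 ratio was 1.28, against -0.07 over all genes. Across the 902 cells the core and the other members had a Spearman's rho of 0.31, a description over cells that share 1 library.

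*Pdk4* had the largest ratio, with 374 CPM in core-high and 38.4 CPM in core-low cells (3.28, 3.00 to 3.58), so 500 of its 625 UMIs in pSEB lay in core-high cells. *Nr4a1*, an orphan nuclear receptor, had 30.7 and 3.38 CPM (3.18, 2.19 to 4.29), *Ccn1* 62.8 and 7.07 CPM (3.15, 2.47 to 3.88), *Btg2* 399 and 48.6 CPM (3.04, 2.78 to 3.30) and *Gadd45b* 20.9 and 2.77 CPM (2.92, 1.79 to 4.19). At the other end, *Myc* had 58.3 and 80.3 CPM (-0.46, -0.84 to -0.09). *Sgk1* (-0.22), *Mcl1* (-0.14), *Gadd45a* (0.04) and *Btg1* (0.12) had intervals that included 0. *Cebpb*, the most abundant member, had 1066 and 979 CPM (0.12, 0.03 to 0.21), so it hardly followed the core.

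**Figure D5:**
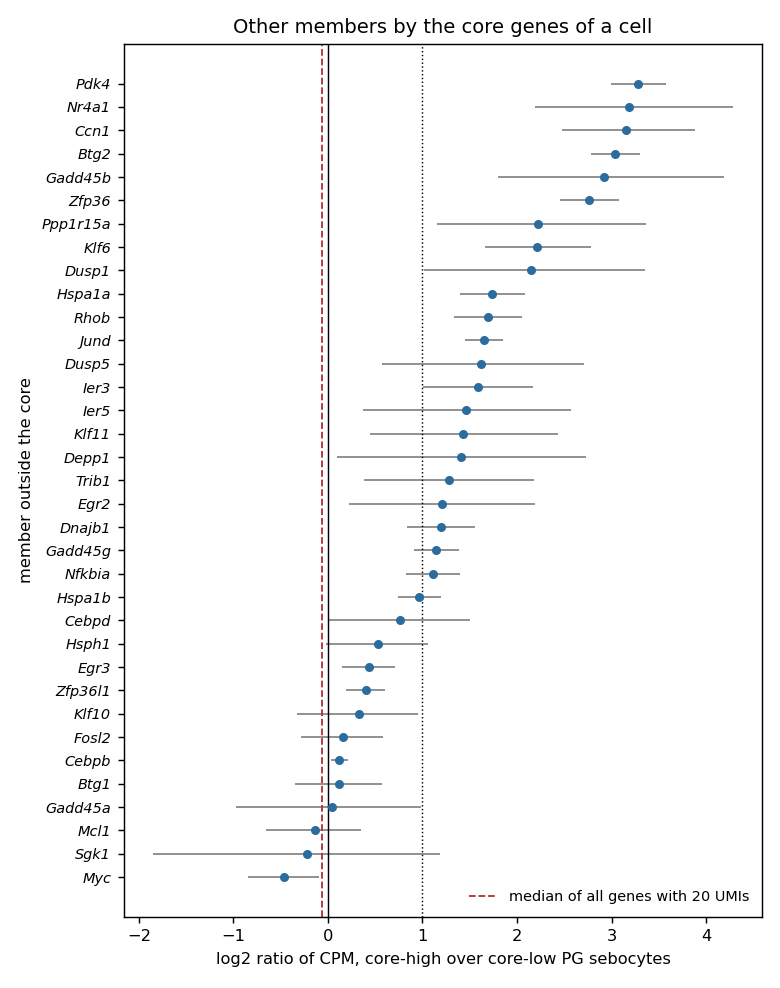
Log2 ratio of CPM (horizontal axis) in 235 core-high over 667 core-low PG sebocytes for the 35 members outside the core with at least 20 UMIs (vertical axis), with exact 95% intervals. The dashed line is the median of all genes (-0.07), the dotted line marks 2-fold, and 22 members lie to its right, from *Nfkbia* (1.11) to *Pdk4* (3.28).

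Core-high pSEB differed from core-low pSEB in other measures as well. Their median depth was 5516 against 4435 UMIs and their median mitochondrial share 3.70% against 3.11%. Fibroblast markers had 168 and 78.4 CPM, contractile markers 41.1 and 14.1 CPM, endothelial markers 10.5 and 6.15 CPM and myeloid markers 23.9 and 37.5 CPM, and the part of RNA from other cells in the split was not tested. Sebocyte markers were 9.83 and 8.55 per 1000 UMIs. Core-high cells were 54 of 163 differentiated pSEB (33.1%, interval 26.0 to 40.9%), 45 of 234 early pSEB (19.2%, 14.4 to 24.9%) and 128 of 478 cells with neither marker set (26.8%, 22.9 to 31.0%).

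Other classes were split at the quartiles of their own core UMIs, at 0 against at least 1 in PG basal keratinocytes, 0 against at least 6 in PG fibroblasts and at most 1 against at least 6 in skin basal keratinocytes. The split points of pSEB were shared by PG basal keratinocytes, PG suprabasal keratinocytes and skin hair matrix cells. In PG basal keratinocytes 24 of 41 compared members were over 2-fold higher in core-high cells (58.5%, against 1.85% of all genes), in PG fibroblasts 34 of 35 (97.1%, against 8.95%) and in skin basal keratinocytes 37 of 45 (82.2%, against 3.02%). The log2 ratio of the summed other members was 0.89, 2.97 and 2.29. It was lower in PG suprabasal keratinocytes (0.87) and skin hair matrix cells (0.72). In these classes 17 of 34 (50%) and 10 of 30 (33.3%) compared members were over 2-fold higher. Over all genes the 95th percentile of the log2 ratio was 0.76 and 0.80, which is under 2-fold. *Pdk4* had 96.5 and 31.1 CPM in core-high and core-low PG basal keratinocytes (1.63, 1.29 to 1.98), and in PG fibroblasts it had 3 and 5 UMIs. *Ccn2* was the 1 member over 2-fold lower in core-high PG fibroblasts, with 50.2 and 165 CPM, and was named after its values were seen.

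Genes of related pathways were counted from 6 further lists. Between sebocytes, 10 of 15 compared genes of NF-kappaB and other early response were over 2-fold lower in pSEB (15.7% of all genes were) and 1, *Tob1*, was higher (13.5% of all genes were). *Nfkbiz* had 20.1 and 145 CPM, *Tnfaip3* 5.23 and 36.2 CPM, *Id3* 8.94 and 57.9 CPM and *Zfp36l2* 49.7 and 203 CPM. Of 8 glucocorticoid response genes 5 were lower and 1, *Tsc22d3*, higher, with *Klf9* at 15.0 and 79.6 CPM and *Mt2* at 92.4 and 383 CPM. Other heat shock genes differed less, with 3 of 12 lower, led by the endoplasmic reticulum chaperone *Hspa5* (201 and 1172 CPM). Of 10 FOXO and fasting response genes 2 were higher, *Foxo1* and *Cpt1a*, and 3 lower, and of the upstream factors 3 of 7 were lower, among them *Srf*. The sSEB held 1, 3 and 5 UMIs of these 3 named genes, and their intervals spanned 0. Of 5 integrated stress response genes 2 were lower. All 3 lower upstream factors had intervals that spanned 0, as did *Cxcl1*, *Csrnp1* and other lower genes of these lists.

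In basal keratinocytes, 11 of 19 NF-kappaB and other early response genes were over 2-fold lower in PG (18.4% of all genes were) and 2 higher (16.3% of all genes were). *Ptgs2*, the inducible cyclooxygenase, had 1.43 and 66.9 CPM (log2 ratio -5.55), *Tnfaip3* -2.98 and *Csrnp1* -2.96. Of 9 upstream factors 1 was lower and of 12 other heat shock genes 3, a share near that of all genes for the heat shock list. Of 11 FOXO and fasting response genes 2 were higher in PG, *Angptl4* (2.30) and *Cpt1a* (1.55), and 1 was lower, and the median of the list was -0.39. Glucocorticoid response genes were lower in 4 and higher in 1 of 8, and integrated stress response genes lower in 2 and higher in 1 of 7. In fibroblasts *Angptl4* (1.69) and *Hspb1* (1.59) were over 2-fold higher in PG, and 6 genes of the 6 lists were over 2-fold lower (9.89% of all genes were higher and 8.92% lower).

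In core-high over core-low pSEB, 4 of 15 NF-kappaB and other early response genes were over 2-fold higher (1.54% of all genes were), *Cxcl1* (15.7 and 1.54 CPM), *Tnfaip3*, *Csrnp1* and *Id3*. *Errfi1*, a feedback inhibitor of EGFR, had 56.8 and 11.7 CPM (2.28), and *Per1* 43.4 and 17.5 CPM. Among FOXO and fasting response genes, *Irs2* (1.71) and *Txnip* (1.63) were higher and 8 others were within 2-fold. *Hspb1* was the 1 of 12 other heat shock genes over 2-fold higher, and *Crem*, an upstream factor, was lower with 4 and 21 UMIs and an interval that spanned 0. In differentiated over early pSEB, *Cdkn1a*, the cell cycle inhibitor p21, had 130 and 30.3 CPM (2.10), *Tob1* 229 and 61.8 CPM (1.89), *Errfi1* 9.77 and 53.9 CPM (-2.47) and *Nfkbiz* 7.81 and 35.97 CPM (-2.20).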

How the data were processed

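Back skin and PG cells of 3 mice were pooled by tissue and sequenced as 1 library each. The authors deposited raw UMI counts of every listed barcode, written by Cell Ranger 4 without normalization, and the build is mm10 per the submitters' processing notes. Counts were read with Python 3.11.15, numpy 2.4.6, scipy 1.17.1 and pandas 2.3.3, and figures were drawn with matplotlib 3.10.9. The 53 members, their role groups and the 6 companion lists were chosen with earlier results of these data known, so they are no independent evidence.

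A cell passed a gate with at least 3 different markers and a minimum of marker UMIs per 1000 UMIs (4 for sebocytes, 3 for both keratinocyte classes, 6 for hair matrix, fibroblasts and myeloid cells, 4 for contractile cells and melanocytes, 2 for endothelial and T cells, 8 for skeletal muscle). Limits were set on the marker counts alone, after these had been seen. *Lgals7* and *Dmkn*, present in most epithelial cells, were left out of the gate. No doublet caller was run. Cells that passed 2 gates, 246 in skin and 113 in PG, were left out, with exceptions among epithelial gates. A sebocyte or hair matrix cell that also passed a keratinocyte gate stayed in its class. A cell that passed both keratinocyte gates went to the one with more marker UMIs. Doublets of sebocytes and keratinocytes were thus not removed. Early sebocytes had at least 2 early and under 1 differentiated marker UMIs per 1000, and differentiated sebocytes the reverse.

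UMIs were summed per class and divided by all UMIs of the class (CPM or percent). A member was compared with at least 20 UMIs in both groups together, and over 2-fold was the rule of size in place of a test, applied to all genes with as many UMIs. Intervals are exact at the 95% level: Poisson for levels, conditional binomial for ratios and Clopper-Pearson for shares of cells. A group at 0 was set to 3 counts for the 2-fold rule. Scripts were tested on simulated data. Promoter windows came from the RefSeq table, with coordinates counted from 1.

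Values are given for the 7 core genes, the 10 members with most CPM in PG sebocytes, and the 5 largest and 5 smallest ratios of the comparisons of sebocytes, basal keratinocytes, fibroblasts, stages and the core split, plus up to 4 genes per companion list (1 gene of these lists is not reported here), and other members where stated or to set a value beside a comparison. The 8 alternatives changed the mitochondrial limit, the depth limit, an upper limit on UMIs, the gate, the weight of cells, *Cebpb*, the denominator, and a share of free RNA.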

Additional observations from a re-analysis of the deposited data

Results flagged for a closer look

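Members over 2-fold lower in PG basal keratinocytes and over 2-fold higher in PG fibroblasts or myeloid cells stood out because the 2 classes differed in opposite directions between the tissues. With 1 library per tissue, the difference between classes was not tested. The share of all genes that met this rule was not counted, so meeting it cannot be read as particular to the members.

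In fibroblasts, the log2 ratio of PG over skin was 1.55 for *Maff*, 1.07 for *Nr4a1*, 1.19 for *Nr4a2*, 1.38 for *Klf2*, 1.33 for *Btg2*, 1.15 for *Zfp36*, 1.01 for *Hspa1b*, 1.53 for *Dnajb1* and 1.86 for *Ccn2*. In basal keratinocytes the same 9 genes had ratios between -3.90 (*Nr4a1*) and -1.68 (*Hspa1b*). With at least 1000 genes and 2000 UMIs the fibroblast ratio turned below 0 for *Maff* (-0.20), *Nr4a1* (-1.52), *Klf2* (-0.27), *Btg2* (-1.50), *Zfp36* (-0.98), *Hspa1b* (-1.06) and *Dnajb1* (-0.37), *Nr4a2* gave no value, and *Ccn2* stayed above 0.

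In myeloid cells, the log2 ratio was 1.07 for *Maff*, 1.77 for *Egr1*, 1.12 for *Ier2*, 1.46 for *Zfp36*, 1.22 for *Dusp5*, 1.31 for *Socs3*, 2.09 for *Nfkbia*, 1.16 for *Ppp1r15a*, 1.59 for *Gadd45b*, 2.48 for *Gadd45g*, 1.23 for *Dnajb1* and 4.71 for *Sgk1*. In basal keratinocytes these 12 genes had ratios between -3.93 (*Gadd45b*) and -1.31 (*Sgk1*). *Maff*, *Zfp36* and *Dnajb1* met the rule in both classes.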

How the results depend on the processing

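The direction of the summed ratio held in sebocytes, basal and suprabasal keratinocytes and myeloid cells under all 8 alternatives (-1.61 to -1.15, -2.43 to -1.99, -1.57 to -1.32 and 0.28 to 0.46). The members over 2-fold lower in PG sebocytes numbered 16 to 25, and those over 2-fold higher in core-high PG sebocytes 15 to 23. With at most 5% mitochondrial UMIs the summed level of PG sebocytes was 0.316%, the log2 ratio of PG over skin sebocytes -1.44, members over 2-fold higher 1, differentiated over early -0.42 and the Fano factor 3.16, with 19 skin sebocytes left. Without *Cebpb* the level was 0.247%, the ratio -1.61 and the Fano factor 4.39. Without mitochondrial and ribosomal protein genes the level was 0.510%, the ratio -1.15, differentiated over early -0.18, the Fano factor 4.94, and the contractile ratio reversed to 0.0189. With each cell at the same weight the level was 0.342%, 4 of 7 classes were higher in PG, and the endothelial and contractile ratios reversed to 0.15 and 0.0287. With doubled gate limits 16 skin sebocytes were left, 1 member was over 2-fold higher, differentiated over early was -0.25 and the endothelial ratio reversed to 0.13. With at least 1000 genes and 2000 UMIs, 1 of 5 matched classes was higher in PG, 0 members were over 2-fold higher in PG sebocytes, and in fibroblasts the sum reversed to -1.06, *Maff* to -0.20, *Nr4a1* to -1.52, *Klf2* to -0.27, *Btg2* to -1.50, *Myc* to -0.0138, *Zfp36* to -0.98, *Hspa1b* to -1.06 and *Dnajb1* to -0.37. The causes were not tested. A log2 ratio could not be formed for *Dusp1*, *Dusp6*, *Ppp1r15a* and *Cebpd* in sebocytes and *Nr4a2* in fibroblasts under 1 alternative each, where a group had no UMIs left. Skin sebocytes, at 138204 UMIs, limit the precision of every ratio between sebocytes. No paired analysis was possible because each tissue had 1 library.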
